A study of Mus musculus with 9 samples.

Results

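The 9 genes described here encode 7 claudins (Cldn3, Cldn4, Cldn5, Cldn6, Cldn7, Cldn9 and Cldn12), occludin (Ocln) and the scaffold protein ZO-1 (Tjp1), and they are 9 of the 47729 genes in the expression table. They were picked by name, with earlier results of the same libraries known, so their differences between time points are given as a description. Counts of the 9 genes past the thresholds used for all genes are printed only to be set beside the share of all genes, and they test nothing about the 9. The libraries are bulk RNA-seq from mouse embryonic stem cells (ESCs) carrying a doxycycline (dox)-inducible, FLAG-tagged forced homodimer of E47, a product of the E2A gene Tcf3, in which a pair of E47 sequences is joined by a linker. Transcription of the construct depends on dox through a tet-responsive promoter, and it was integrated next to Hprt by recombinase-mediated exchange. All cells were cultured in LIF/serum, and the groups were untreated cells (0 h) and cells given dox at 1 µg/ml for 18 h or for 24 h, each with 3 biological replicates. No library of dox-treated cells without the transgene was analysed here, so dox and the homodimer cannot be told apart.

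Claudins are membrane proteins with 4 transmembrane segments whose extracellular loops join those of the neighbouring cell and form the strands of the tight junction. Some claudins, such as that encoded by Cldn4, are regarded mainly as sealing, and occludin is a further strand protein with a MARVEL domain. ZO-1 lies on the cytoplasmic side and ties the strands to actin. Cldn4, Cldn6 and Cldn7 are known from embryonic epithelia and ESCs, whereas Cldn5 is best known from endothelial barriers. E proteins such as E47 bind the E-box CANNTG, and the repressors encoded by Snai1, Snai2, Zeb1 and Zeb2 bind the E-box form CAGGTG in epithelial genes.

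The libraries held between 22028363 and 26471569 reads assigned to genes. Tcf3 was measured at 41.2, 37.7 and 38.5 FPKM (fragments per kilobase of transcript, scaled to the depth of the library) at 0 h, at 116, 107 and 107 FPKM at 18 h and at 104, 93.6 and 108 FPKM at 24 h, so every dox-treated library lay above every 0 h library. The table does not separate reads of the transgene from those of the endogenous gene. All 8 ESC markers examined had a mean of at least 1 FPKM in every group, with Dppa5a, Pou5f1 and Utf1 the highest. Replicate 1 stood above the others in every group for Dppa5a, at 1070 against 623 and 641 FPKM at 0 h, and also for Cldn4.

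The genes are spread over 6 chromosomes (GRCm38, GENCODE M21), with a pair of close neighbours on chromosome 5 and another on chromosome 17. Cldn5 (ENSMUSG00000041378, chr16:18776847-18778262, plus strand) has 1 exon, and 2184 bases separate it from Cdc45 on the opposite strand. Cldn4 (ENSMUSG00000047501, chr5:134945119-134946934, minus strand) and Cldn3 (ENSMUSG00000070473, chr5:134986214-134987472, plus strand) also have 1 exon each, and their starts face away from each other across 39279 bases. Cldn6 (ENSMUSG00000023906, chr17:23679249-23682446, plus strand) has 3 exons, of which 1 is coding. It converges with the 1-exon gene Cldn9 (ENSMUSG00000066720, chr17:23682584-23684026, minus strand), with 137 bases between them. Cldn7 (ENSMUSG00000018569, chr11:69964779-69967885, plus strand) has 4 exons, all with coding sequence. Cldn12 (ENSMUSG00000046798, chr5:5489537-5514958, minus strand) has 5 exons, of which 1 is coding. Ocln (ENSMUSG00000021638, chr13:100496507-100552718, minus strand) has 9 exons and Tjp1 (ENSMUSG00000030516, chr7:65296165-65527781, minus strand) has 28, counted in the longest annotated coding transcript. Cldn3 overlaps the antisense gene Wbscr25 by 40 bases, and Wbscr25 had a mean of 0.133 FPKM at 0 h and less at both later times.

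Promoter windows running from 250 bases before to 50 bases after a transcription start were searched for E-boxes, because the induced factor recognizes that motif. RefSeq (GRCm38.p6) windows were matched for 8 of the 9 genes, 12 windows in all, and there was no entry for Cldn9. The 4 windows printed here belong to the genes whose dox-treated libraries did not overlap the 0 h libraries. Where a gene had several windows, the one with the most E-boxes is shown. Every CANNTG is in capitals, the sequences run 5′ to 3′ on the gene's strand, and motifs were sought on both strands. The windows are chr16:18776597-18776896 (plus) for Cldn5, chr5:134946885-134947184 (minus) for Cldn4, chr11:69965171-69965470 (plus) for Cldn7 and chr13:100552449-100552748 (minus) for Ocln.
Cldn5: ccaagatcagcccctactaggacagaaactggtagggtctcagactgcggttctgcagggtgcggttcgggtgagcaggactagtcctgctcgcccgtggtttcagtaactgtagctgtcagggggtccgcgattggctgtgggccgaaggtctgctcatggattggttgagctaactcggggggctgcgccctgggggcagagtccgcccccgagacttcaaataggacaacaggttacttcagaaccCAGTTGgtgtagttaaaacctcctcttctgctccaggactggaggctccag
Cldn4: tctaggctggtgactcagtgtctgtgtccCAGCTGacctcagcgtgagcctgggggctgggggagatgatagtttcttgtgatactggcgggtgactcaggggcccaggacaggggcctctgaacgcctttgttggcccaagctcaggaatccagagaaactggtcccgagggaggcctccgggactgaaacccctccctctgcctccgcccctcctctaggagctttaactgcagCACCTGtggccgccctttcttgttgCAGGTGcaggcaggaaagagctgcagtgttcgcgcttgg
Cldn7: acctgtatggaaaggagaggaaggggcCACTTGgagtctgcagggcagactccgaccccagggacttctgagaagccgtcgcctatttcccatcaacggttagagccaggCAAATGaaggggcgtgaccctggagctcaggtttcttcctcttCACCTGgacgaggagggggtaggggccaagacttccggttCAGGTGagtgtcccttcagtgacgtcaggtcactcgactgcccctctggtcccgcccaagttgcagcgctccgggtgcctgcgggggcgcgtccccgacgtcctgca
Ocln: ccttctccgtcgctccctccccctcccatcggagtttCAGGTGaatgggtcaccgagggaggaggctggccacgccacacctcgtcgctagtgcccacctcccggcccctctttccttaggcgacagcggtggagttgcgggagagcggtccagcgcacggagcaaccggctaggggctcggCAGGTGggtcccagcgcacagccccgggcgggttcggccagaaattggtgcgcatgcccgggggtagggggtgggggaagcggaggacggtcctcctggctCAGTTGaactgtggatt

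The Cldn5 window, from the gene with the largest difference, held 1 E-box, a CAGTTG beginning 1 base before the start, and neither CAGGTG nor CAGCTG. The Cldn4 window held 3 E-boxes, a CAGCTG beginning 221 bases upstream, a CACCTG 14 bases upstream and a CAGGTG 11 bases downstream of the start. CACCTG reads as CAGGTG on the other strand. Among the genes that were lower with dox, the Cldn7 window at a start 642 bases inside the annotated gene held 4 E-boxes, with a CACCTG 97 bases and a CAGGTG 57 bases upstream. The window at the outermost Cldn7 start held none. The Ocln window shown, at a start 220 bases inside the gene, held CAGGTG at 213 and 68 bases upstream and a CAGTTG 33 bases downstream. The first of these is the same site as the CAGGTG 7 bases downstream of the outermost Ocln start. Of the genes whose libraries overlapped between time points, Cldn6 had CAGGTG 93 bases upstream and 40 bases downstream, and Cldn3 had 1 at 31 bases downstream. The 3 Cldn12 windows and the single Tjp1 window held no CANNTG, and the Tjp1 window lies 156537 bases inside the outermost annotated start. In all, 7 of the 12 windows held CANNTG and 6 held CAGGTG in either orientation. Of the 32851 promoter windows in the table, 72.3% held CANNTG, 20.2% held CAGGTG and 16.3% held CAGCTG. These matches describe the letters in the windows only, and binding was not measured.

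**Figure D1:**
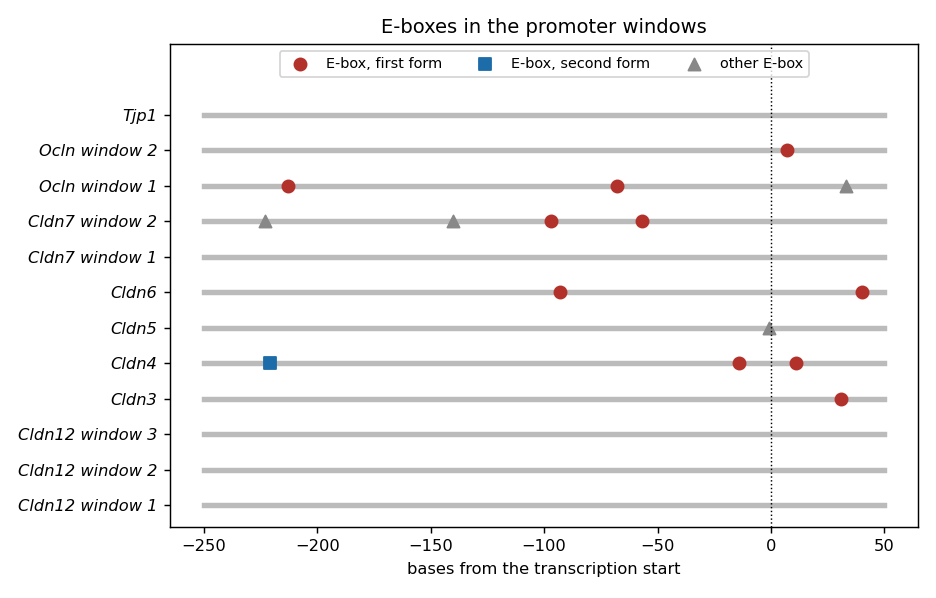
E-boxes in the 12 RefSeq promoter windows of 8 genes, by distance in bases from the transcription start (dotted line, x axis); each grey bar is a window of 300 bases. Red circles mark CAGGTG in either orientation (first form), blue squares CAGCTG (second form) and grey triangles any other CANNTG; Cldn4 carries both forms and Cldn5 neither.

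Before dox, the claudin transcripts of these ESCs were mainly Cldn6 and Cldn4. Cldn6 was at 108.6±10.2 FPKM (mean±s.d., n=3) and Cldn4 at 55.3±11.8 FPKM, with no overlap between the 2 genes. FPKM is scaled by transcript length, so levels may be compared between genes. Tjp1 at 31.0±3.11 FPKM and Cldn7 at 29.5±1.11 FPKM overlapped, and were followed by Cldn12 at 11.6±1.77 FPKM. Ocln at 5.07±0.598 FPKM and Cldn3 at 4.62±1.17 FPKM also overlapped, Cldn9 was at 0.846±0.162 FPKM, and Cldn5 was the lowest of the 9 at 0.291±0.156 FPKM. At 18 h Cldn5 stood in the sixth place, above Cldn3, Ocln and Cldn9 in every library. At 24 h it had the same place, but its libraries overlapped those of Cldn3. Apart from Cldn5, the exchanges of place were between Cldn3 and Ocln, which overlapped at 0 h and at 18 h.

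Cldn5 showed the largest log2 fold-change of the 9 genes at both times, a result that was known when the genes were chosen. It was measured at 0.208, 0.471 and 0.195 FPKM at 0 h, from 7, 16 and 6 reads. At 18 h it was at 11.3, 7.01 and 7.13 FPKM, from 364, 247 and 244 reads. At 24 h it was at 8.77, 7.34 and 5.74 FPKM, from 315, 265 and 221 reads. Every dox-treated library was above every 0 h library, and the 2 dox times overlapped. The ratio of the means was 29.1 at 18 h and 25.0 at 24 h, and within replicate numbers the ratio ran from 14.9 to 54.2 at 18 h and from 15.6 to 42.2 at 24 h. Replicate 2, with the most 0 h reads, gave the lowest ratio each time. On the log2(FPKM+0.1) scale the difference from 0 h was 4.49±0.286 (s.e.) at 18 h and 4.29±0.286 at 24 h, given below as the log2 fold-change. With a pseudocount of 1 these values were 2.85 and 2.67, because the pseudocount then exceeds the 0 h level. The neighbouring gene Cdc45, a DNA replication factor, was at 28.7±0.767, 32.0±0.479 and 31.5±0.769 FPKM at the 3 times and did not pass the test in either comparison with 0 h (limma, adjusted p = 0.0796 and 0.106). With the replicate number as a block, which estimates each difference within replicate numbers, its adjusted p by limma was 0.0355 and 0.0507, with log2 fold-changes of 0.16 and 0.13.

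Cldn4 was the other claudin of the set that was higher in every dox-treated library. Its levels were 68.8, 50.3 and 46.9 FPKM at 0 h, 105, 86.0 and 73.6 FPKM at 18 h and 105, 79.6 and 75.2 FPKM at 24 h. Replicate 1 was the highest at each time, and the lowest dox-treated library (73.6 FPKM) was not far above the highest 0 h library (68.8 FPKM). The within-replicate ratio was narrower than the spread of the levels, from 1.52 to 1.71 at 18 h and from 1.53 to 1.60 at 24 h. The log2 fold-changes were 0.68±0.183 and 0.65±0.183 for the 2 times. In FPKM the gain in the mean was larger for Cldn4 than for Cldn5, from 55.3 to 88.1 against from 0.291 to 8.47 at 18 h, although its fold was far smaller.

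**Figure D2:**
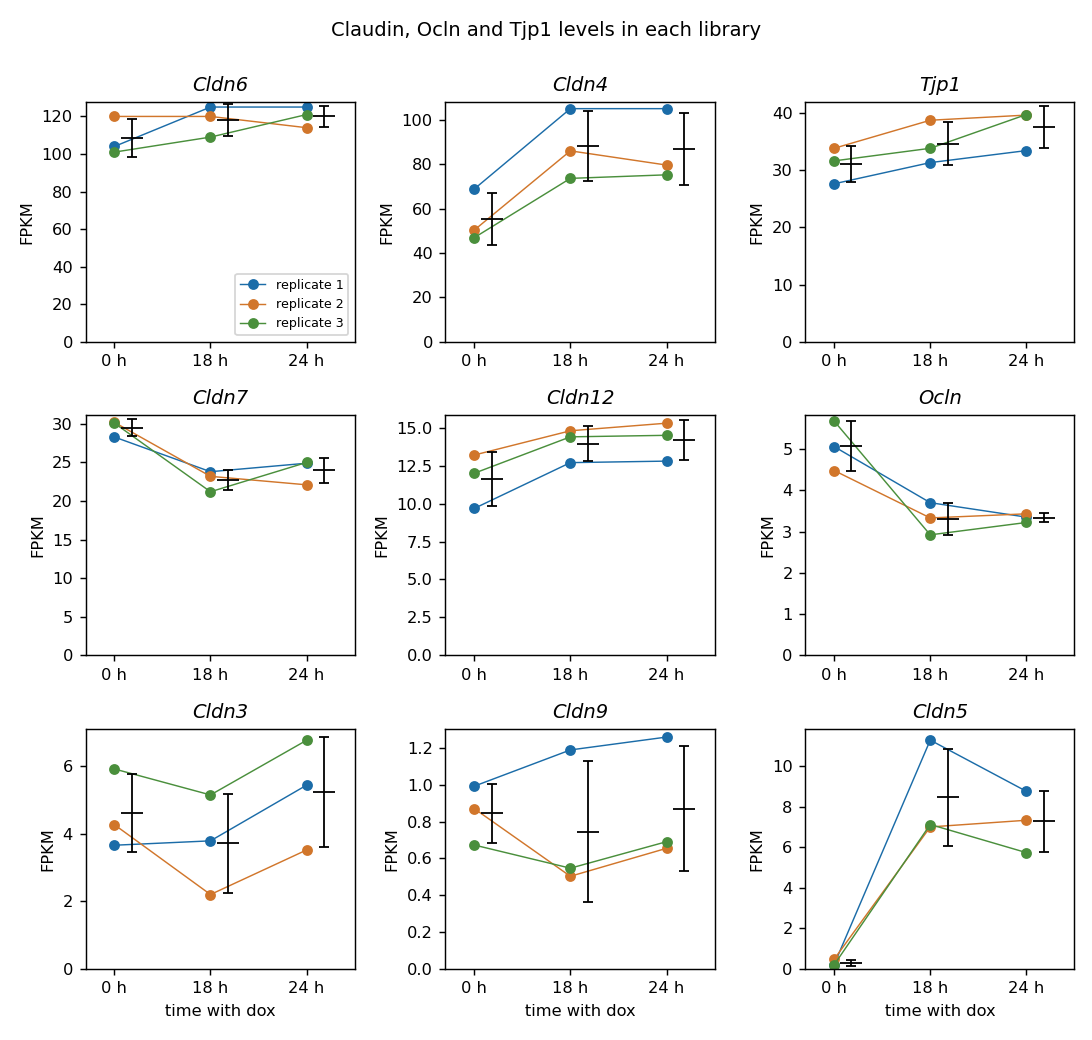
FPKM (y axes, each starting at 0) of the 9 genes by time with dox (x axes, 3 time points), ordered by 0 h mean; points are libraries, coloured lines join libraries with the same replicate number, and black bars are mean±s.d. (n=3). Cldn5 and Cldn4 lie higher in all 6 dox-treated libraries, Cldn7 and Ocln lower, and the other 5 genes overlap their 0 h values.

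Cldn7 and Ocln were lower in every dox-treated library than in every 0 h library. Cldn7 was at 28.3, 30.2 and 30.1 FPKM at 0 h, at 23.8, 23.2 and 21.2 FPKM at 18 h and at 24.9, 22.1 and 25.0 FPKM at 24 h. Its log2 fold-change was −0.38±0.0689 at 18 h and −0.30±0.0689 at 24 h, a ratio of means of 0.770 and 0.812. Ocln was at 5.06, 4.48 and 5.68 FPKM at 0 h, at 3.70, 3.33 and 2.92 FPKM at 18 h and at 3.35, 3.43 and 3.22 FPKM at 24 h. Its log2 fold-change was −0.60±0.115 and −0.59±0.115, a ratio of means of 0.653 and 0.657. Both genes thus stood at about the same level at the 2 dox times, and neither had a log2 fold-change of 1 or more in size. Because the libraries are bulk, fewer cells carrying a transcript and less of it per cell cannot be told apart.

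The remaining 5 genes overlapped between 0 h and both dox times. Cldn12 was at 9.68, 13.2 and 12 FPKM at 0 h, at 12.7, 14.8 and 14.4 FPKM at 18 h and at 12.8, 15.3 and 14.5 FPKM at 24 h. Tjp1 was at 27.6, 33.8 and 31.6 FPKM at 0 h, at 31.3, 38.7 and 33.8 FPKM at 18 h and at 33.4, 39.6 and 39.7 FPKM at 24 h. For both genes replicate 1 was the lowest throughout, and within each of the 3 replicate numbers the dox-treated library was above its 0 h partner, by ratios of 1.13 to 1.32 for Cldn12 and 1.07 to 1.26 for Tjp1. Their log2 fold-changes at 24 h were 0.30±0.120 and 0.28±0.107. Cldn6, the highest claudin at each time, was at 104, 120 and 101 FPKM at 0 h, 125, 120 and 109 FPKM at 18 h and 125, 114 and 121 FPKM at 24 h, with log2 fold-changes of 0.12±0.0801 and 0.15±0.0801. Its neighbour Cldn9 ranged from 0.673 to 0.993 FPKM at 0 h, from 0.503 to 1.19 at 18 h and from 0.655 to 1.26 at 24 h, from 18 to 46 reads a library. Cldn3, the neighbour of Cldn4, was at 3.66, 4.27 and 5.92 FPKM at 0 h, 3.79, 2.20 and 5.15 FPKM at 18 h and 5.44, 3.52 and 6.77 FPKM at 24 h. The log2 fold-changes of Cldn3 were −0.36±0.326 and 0.16±0.326, and the latter was −0.05 without 24 h replicate 3. The chromosome 5 neighbours therefore showed different patterns, with Cldn4 higher in all 6 dox-treated libraries and Cldn3 overlapping.

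**Figure D3:**
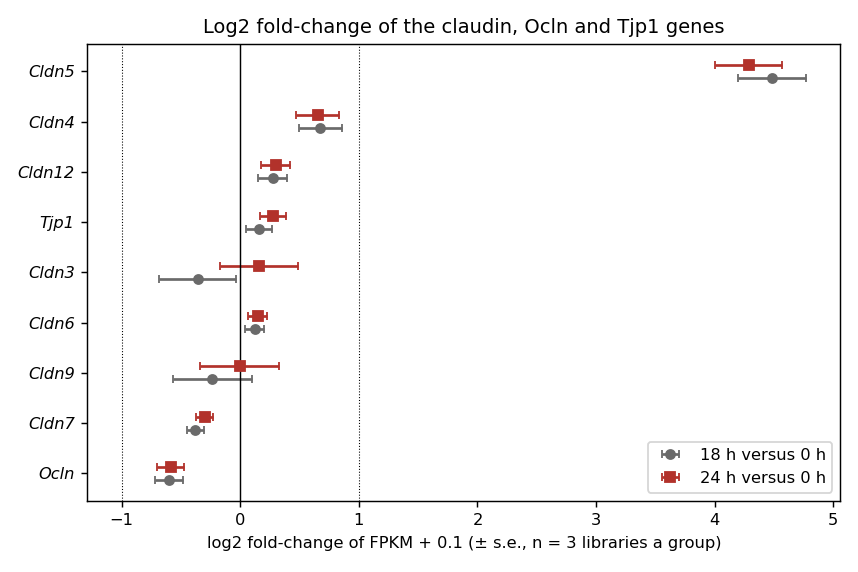
Log2 fold-change of FPKM + 0.1 against 0 h (x axis) for the 9 genes (y axis), at 18 h (grey circles) and 24 h (red squares), with ± s.e. from the fit over 9 libraries; dotted lines mark a log2 fold-change of 1 in either direction. Cldn5 lies at 4.49 and 4.29 and the other 8 genes lie between −0.60 and 0.68.

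A gene was called where limma gave an adjusted p of at most 0.05 and a log2 fold-change of at least 1 in size, and the counts here are set beside the share of all tested genes. At 18 h, 1 of the 9 genes was called higher (Cldn5), against 1.33% of all genes tested, and 0 lower, against 0.724%. At 24 h, 1 was called higher (Cldn5), against 2.07%, and 0 lower, against 0.836%. With no minimum fold, 1 was higher and 2 lower at 18 h (4.27% and 3.72% of all genes) and 2 were higher and 2 lower at 24 h (6.52% and 5.11%). With the replicate block, those counts were 4 higher and 2 lower at each time, against 10.8% higher and 10.7% lower of all genes at 18 h and 13.6% and 12.5% at 24 h in the same fit. At 18 h Cldn4, Cldn12 and Tjp1 then joined Cldn5, and at 24 h, where Cldn4 had passed without the block, Cldn12 and Tjp1 joined. Without regard to any test, 2 of the 9 genes had all 18 h libraries above 0 h and 2 below, against 14.4% and 13.7% of all genes. The same counts held at 24 h, against 16.7% and 14.6%. Nothing is read from these counts, since the genes were chosen on the same libraries. The median log2 fold-change of the 9 genes was 0.12 at 18 h and 0.16 at 24 h, against −0.00 and 0.00 over all genes tested.

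Between 18 h and 24 h all 9 genes overlapped. None was called by limma, edgeR or DESeq2, and the shares of all tested genes called were 0.0167% higher and 0.00557% lower. None had an unadjusted limma p under 0.05, against 1004 of the 17951 genes tested. Groups that did not overlap made up 6.81% (higher) and 6.04% (lower) of all genes in that comparison. The log2 fold-changes of the 9 genes ran from −0.20±0.286 for Cldn5 to 0.52±0.326 for Cldn3. Cldn3 and Cldn9 were each higher at 24 h in all 3 replicate numbers, by ratios of 1.31 to 1.60 and 1.06 to 1.30, and so were Cldn12 and Tjp1.

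The composition of the claudin transcripts shifted with these differences. The table lists 23 claudin genes, and their summed level was 217, 221 and 198 FPKM at 0 h, 284, 256 and 233 FPKM at 18 h and 286, 245 and 252 FPKM at 24 h. All dox-treated libraries had a higher sum than all 0 h libraries. Cldn6 and Cldn4 together made up 74.8% to 79.7% of the sum at 0 h, 78.4% to 80.9% at 18 h and 78.0% to 80.6% at 24 h. Within that pair the Cldn6 to Cldn4 ratio was 2.02±0.452 at 0 h, 1.36±0.145 at 18 h and 1.41±0.216 at 24 h, with all 18 h libraries below all 0 h libraries and 24 h replicate 3 within their range. The Cldn7 share was 14.0±1.12% at 0 h and 8.85±0.420% and 9.21±0.620% after dox. The Cldn5 share was 0.136±0.0671% at 0 h, 3.26±0.633% at 18 h and 2.78±0.437% at 24 h. Cldn5 thus remained a small part of the claudin pool after its large fold-change.

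**Figure D4:**
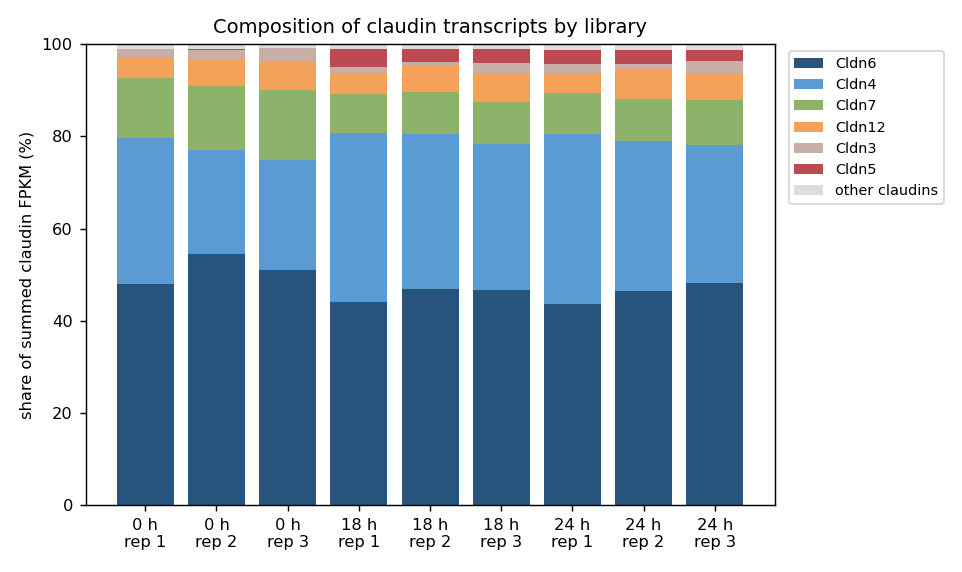
Share of the summed FPKM of 23 claudin genes (y axis, %) taken by each claudin in the 9 libraries (x axis, time with dox and replicate). Cldn6 and Cldn4 fill 74.8% to 80.9% of every bar, the Cldn7 share is smaller after dox, and Cldn5 appears as a visible band at 18 h and 24 h.

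The other genes of the tight junction were taken from lists of 59 genes written by function, of which 58 were found in the table and 43 passed the filter on low values. At 18 h, 1 of the 43 was called higher and 1 lower, and at 24 h 2 were called higher and 1 lower, shares to be read against the percentages of all genes given above. With no minimum fold, 5 were higher and 3 lower at 18 h, against 4.27% and 3.72% of all genes. At 24 h 8 were higher and 2 lower, against 6.52% and 5.11%. With the replicate block 8 were higher and 9 lower at the earlier time, and 13 and 6 at the later, to be read against 10.8% and 10.7%, and 13.6% and 12.5%, of all genes in that fit. The median log2 fold-change of the 43 genes was 0.03 at 18 h and 0.10 at 24 h, against −0.00303 and 0.00403 over all genes tested. Between 18 h and 24 h none of the 43 was called by limma, edgeR or DESeq2. An unadjusted limma p under 0.05 was given for 2 of them, against 1004 of the 17951 genes tested.

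Of the other claudins, 16 were in the table and 4 passed the filter on low values, of which Cldn1 was called higher at 24 h (all genes, 2.07%). Cldn1, an epidermal barrier claudin, was at 0.710, 0.693 and 0.510 FPKM at 0 h, 0.902, 1.36 and 0.929 FPKM at 18 h and 1.30, 1.67 and 1.48 FPKM at 24 h. It rose by a log2 fold-change of 1.11±0.198 at 24 h (limma, adjusted p = 0.0101), and did not pass at 18 h (0.65±0.198, adjusted p = 0.0782). With the replicate block the 18 h adjusted p by limma was 0.0261, with the fold still below the minimum. The 24 h value was 0.97 without 0 h replicate 3 and 0.60 with a pseudocount of 1, and the gene was then no longer called. Cldn23 and Cldn15, the next highest, stayed under 0.5 FPKM in every library and did not pass. In the 0 h group 13 of these 16 claudins had a mean below 0.1 FPKM, and Cldn17 and Cldn24 were listed at 0 in all libraries.

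Among MARVEL and tricellular junction proteins, 0 of 5 were called at either time by limma, edgeR or DESeq2. At 18 h and 24 h, 1 and 2 had an unadjusted limma p under 0.05, against 4568 and 5062 of the 17951 genes tested. Lsr, which encodes angulin-1 of tricellular contacts, was at 49.8±10.6, 51.8±2.63 and 52.5±0.764 FPKM. Marveld2 (tricellulin) was at 7.41±1.17, 6.22±0.665 and 6.70±0.362 FPKM, and Marveld3 at 5.22±0.880, 4.13±0.319 and 4.37±0.85 FPKM. Ildr2, an angulin of low level, rose by 0.73±0.177 on the log2 scale at 24 h (adjusted p = 0.0320 by limma), below the fold minimum, and did not pass in 5 of the 9 fits with 1 library left out (highest adjusted p = 0.114). Ildr1, another angulin gene, passed as lower at both times in the fit with the replicate block (limma, adjusted p = 0.0190 and 0.0209).

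Among the junctional immunoglobulin proteins, 5 of 6 were tested, and 1 was called lower at each time, against 0.724% and 0.836% of all genes. F11r, which encodes the adhesion molecule JAM-A, rose from 33.0±0.883 FPKM to 42.8±1.29 FPKM at 18 h and 40.4±0.709 FPKM at 24 h. The log2 fold-changes were 0.38±0.0483 and 0.29±0.0483 (limma, adjusted p = 0.00331 and 0.00766), below the fold minimum, and passed in all 9 fits with 1 library left out. Esam, an adhesion molecule known from endothelium, was called lower, from 0.556, 0.901 and 0.545 FPKM at 0 h to 0.336, 0.252 and 0.0865 FPKM at 18 h and 0.192, 0.191 and 0.218 FPKM at 24 h. Its log2 fold-changes were −1.30±0.333 and −1.32±0.333 (limma, adjusted p = 0.0459 and 0.0356), from 6 to 62 reads a library. The 18 h call was lost when any 1 library other than 18 h replicate 1 was left out, with adjusted p up to 0.116. The 24 h call was lost without any 1 library other than 18 h replicate 1 or 18 h replicate 3, with adjusted p up to 0.103. Both calls were also lost with a pseudocount of 1 (−0.44 and −0.47) or 0.01 (adjusted p = 0.0602 and 0.0526 by limma) and with no filter (0.0817 and 0.0633). The 18 h call was lost as well with no intensity trend (0.0551) and with only the 2 time points fitted (0.109). With the replicate block Esam was called lower at both times, by limma and by edgeR on recovered reads. Without the block, edgeR and DESeq2 on recovered reads each called 1 gene of this list at each time. Cxadr, the coxsackievirus and adenovirus receptor, and Jam3 were at 8.65±1.23 and 10.0±1.09 FPKM at 0 h and did not pass at either time. Cxadr passed as higher at both times with the replicate block, below the fold minimum, by 0.34 and 0.33 on the log2 scale (limma, adjusted p = 0.0110 and 0.0105), Jam2 passed as lower (0.00544 and 0.00655), and Jam3 did not.

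Among the scaffolds and adaptors, all 19 were tested and 1 was called higher at both times, Cgnl1, against 1.33% and 2.07% of all genes. This gene, which encodes paracingulin, a cytoplasmic protein of cell junctions, was at 2.84, 4.08 and 3.86 FPKM at 0 h, 11.2, 9.43 and 10.2 FPKM at 18 h and 8.59, 8.84 and 7.51 FPKM at 24 h. It rose by a log2 fold-change of 1.50±0.136 and 1.20±0.136 (limma, adjusted p = 0.000666 and 0.00143). Of the 19 genes in this list, 4 rose and 2 fell at 18 h with no minimum fold, against 4.27% and 3.72% of all genes, and 5 rose and 1 fell at 24 h, against 6.52% and 5.11%. The replicate block gave 5 and 4 (all genes, 10.8% and 10.7%), and 7 and 1 (13.6% and 12.5%). The angiomotin gene Amot, whose product binds apical junctions and YAP, went from 4.79±1.00 FPKM to 8.64±1.23 and 8.94±1.13 FPKM (log2 fold-change 0.85±0.168 and 0.90±0.168, limma adjusted p = 0.0185 and 0.0115). Arhgef18, a guanine nucleotide exchange factor gene, rose by 0.51 and 0.50 on the log2 scale (adjusted p = 0.00319 and 0.00244 by limma). The scaffold gene Magi3 rose by 0.47 and 0.55 (adjusted p = 0.0389 and 0.0178 by limma). Rab13, a GTPase of junction assembly, rose by 0.56 at 24 h (adjusted p = 0.0376 by limma). Ybx3, which encodes the ZO-1-associated factor ZONAB and was the highest of the list, fell from 148.6±3.26 FPKM to 119.1±6.63 and 108.0±11.4 FPKM (adjusted p = 0.0410 and 0.00837 by limma). Arhgef2, which encodes the junctional exchange factor GEF-H1, fell at 18 h by 0.43 on the log2 scale (adjusted p = 0.0336 by limma). Amotl2, another angiomotin gene, was at 45.9±6.83, 59.8±8.80 and 56.4±8.90 FPKM and did not pass without the block (adjusted p = 0.155 and 0.235 by limma). It passed as higher at both times with the block, below the fold minimum, by 0.38 and 0.30 (adjusted p = 0.00455 and 0.00850 by limma). Also below the fold minimum, the block added Tjp3 (−0.58) and Afdn (−0.20) as lower at 18 h (limma, adjusted p = 0.0301 and 0.0399). Cgn was added as higher at 24 h (0.20, adjusted p = 0.0460 by limma). With 1 library left out, Cgnl1, Arhgef18 and, at 24 h, Amot and Ybx3 stayed at an adjusted p of at most 0.05 in all 9 fits. The others of this list that passed without the block did not. The highest adjusted p was 0.138 for Magi3, 0.141 for Ybx3, 0.113 for Arhgef2 and 0.0755 for Amot at 18 h, and 0.0708 for Magi3 and 0.119 for Rab13 at 24 h.

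Of the apical polarity proteins, 10 of 12 were tested and 0 were called at either time by limma, edgeR or DESeq2. At an unadjusted limma p under 0.05 there were 2 at 18 h and 4 at 24 h, against 4568 and 5062 of the 17951 genes tested. Prkci, which encodes atypical protein kinase C iota, was the highest at 35.9±2.10, 32.2±2.0 and 30.5±1.48 FPKM, followed by Lin7c at 30.9±2.24, 31.8±2.44 and 30.6±2.37 FPKM. Pard6b was at 20.3±0.995, 17.7±1.18 and 17.7±1.11 FPKM. With the replicate block Prkci passed as lower at both times (limma, adjusted p = 0.0214 and 0.00400) and so did Pard6b (0.0332 and 0.0292), all below the fold minimum, and Lin7c did not. The polarity genes Crb2 and Pard6g passed as higher at 24 h in that fit (adjusted p by limma = 0.00998 and 0.0212).

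**Figure D5:**
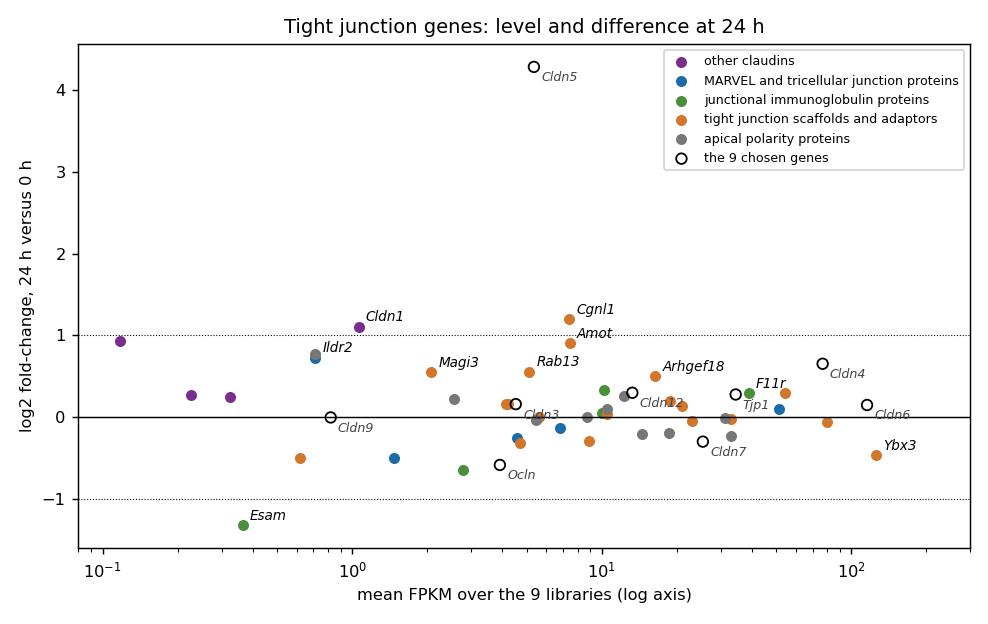
Log2 fold-change of FPKM + 0.1 at 24 h versus 0 h (y axis) against mean FPKM over 9 libraries (x axis, log scale) for the 43 other tight junction genes tested, coloured by list, and the 9 chosen genes (open circles). Black names mark listed genes with an adjusted p of at most 0.05; dotted lines mark a log2 fold-change of 1 in either direction, and Cldn1, Cgnl1 and Esam lie outside them.

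Of 12 transcription factors known to act on epithelial junction genes, 3 were called higher by limma at 18 h and 5 at 24 h, against 1.33% and 2.07% of all genes, and none was called lower. At the 2 times 7 and 6 of them did not reach an adjusted p of 0.05. With no minimum fold 4 were higher and 1 lower at 18 h (all genes, 4.27% and 3.72%) and 5 and 1 at 24 h (6.52% and 5.11%). In the fit with the replicate block they were 7 and 1 (all genes, 10.8% and 10.7%), and 6 and 1 (13.6% and 12.5%). The E-box repressor genes Snai1 (2.15±0.245, 5.01±0.215 and 4.86±0.448 FPKM) and Snai2 (0.207±0.0569, 1.37±0.0248 and 1.77±0.450 FPKM) were called higher at both times (limma, adjusted p at 24 h = 0.000605 and 0.00033). With a pseudocount of 1 Snai1 fell below the fold minimum at both times (0.94 and 0.90), as did Snai2 at 18 h (0.98 against 2.28). Cdx2, a trophectoderm and gut factor, went from 0.476±0.218 FPKM to 2.18±0.346 and 3.44±0.684 FPKM and was called higher at both times (adjusted p = 0.00476 and 0.00117 by limma). Zeb1 and Zeb2 were called higher at 24 h, by 1.09±0.180 and 1.25±0.304 on the log2 scale (adjusted p = 0.00763 and 0.0314 by limma), both from under 0.5 FPKM at 0 h. The 24 h Zeb1 call was lost without 0 h replicate 1 (0.95) and with a pseudocount of 1 (0.47). At 18 h Zeb1 was higher by 0.87±0.180, below the fold minimum (adjusted p = 0.0223 by limma, up to 0.0832 with 1 library left out). edgeR and DESeq2 on recovered reads called it at that time too (both 1.02, adjusted p = 0.00295 and 2.04e-06), which made 4 of the 12 factors. The Zeb2 call was lost without 0 h replicate 1, 0 h replicate 2, 24 h replicate 2 or 24 h replicate 3, with adjusted p up to 0.113. It was also lost with a pseudocount of 1 (0.54), with no filter (adjusted p = 0.0610 by limma) and with only the 2 time points fitted (0.0649). Klf5, a factor of trophectoderm and ESC self-renewal, fell from 23.1±5.90 to 14.0±0.531 and 12.8±1.29 FPKM (adjusted p = 0.0384 and 0.0164 by limma), below the fold minimum, with adjusted p up to 0.123 and 0.0646 with 1 library left out. Grhl2, a regulator of epithelial claudin genes, was at 10.3±1.31, 10.4±1.79 and 9.58±1.17 FPKM and Klf4 at 6.14±1.58, 8.03±1.78 and 8.01±1.74 FPKM, and neither passed without the block. Klf4 passed as higher at both times with the replicate block, below the fold minimum (limma, adjusted p = 0.0118 and 0.0101). In that fit Zeb2 and Ovol2 passed as higher at 18 h, below the fold minimum (limma, adjusted p = 0.0128 and 0.0452), and Grhl2 did not pass.

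Markers of other cell types were examined beside the claudins. The endothelial list of 14 genes, relevant to Cldn5 and Esam, summed to 22.5 to 31.7 FPKM at 0 h, 20.4 to 27.9 at 18 h and 21.7 to 27.6 at 24 h, so the groups overlapped. Emcn was at 0 in all libraries, and Cdh5, which encodes VE-cadherin, did not exceed 0.187 FPKM. Of its 11 genes tested, 2 were called higher at 24 h, Sox18 and Ramp2, against 2.07% of all genes. They were then at 1.09±0.277 and 3.03±0.224 FPKM (limma, adjusted p = 0.0373 and 0.00695). The Sox18 call was lost in 6 of the 9 fits with 1 library left out, those without 0 h replicate 2 or 3, 18 h replicate 2 or any 24 h library, with adjusted p up to 0.094. It was also lost with a pseudocount of 1 (0.54), with no filter (adjusted p = 0.0705 by limma), with no intensity trend (0.0529) and with only the 2 time points fitted (0.0703). On recovered reads, edgeR and DESeq2 both called Sox18 higher at 24 h (adjusted p = 0.0269 and 0.0132). Both called Ramp2 higher at 24 h too (adjusted p = 0.0019 by edgeR and 2.08e-07 by DESeq2). The Ramp2 fold was below the minimum without 0 h replicate 1 (0.92) and with a pseudocount of 1 (0.77). Tie1, an endothelial receptor gene, went from 0.277±0.0413 to 0.153±0.0540 and 0.123±0.0200 FPKM and did not pass by limma (adjusted p = 0.190 and 0.0913). edgeR on recovered reads called it lower at 24 h, by −1.18 on the log2 scale (adjusted p = 0.0235), and so did DESeq2 (adjusted p = 0.0266). Plvap was lower at both times below the fold minimum, with adjusted p up to 0.0813 with 1 library left out. In the fit with the replicate block 2 of the 11 were higher and 3 lower at each time, against 0 and 1 at 18 h and 2 and 1 at 24 h without it. Over all genes the blocked fit gave shares of 10.8% and 10.7% for the earlier time and 13.6% and 12.5% for the later. Those added as lower were Egfl7 (limma, adjusted p = 0.0257 and 0.0124) and Tek (0.0457 and 0.0312), and Ramp2 and Sox18 then passed as higher at 18 h (0.0495 and 0.0194), all these below the fold minimum. The trophectoderm list of 10 genes summed to 16.0 to 19.0 FPKM at 0 h, 29.0 to 36.2 at 18 h and 36.0 to 41.0 at 24 h, with Cdx2, Hand1 and Gata2 called higher at both times (3 of 9 tested, against 1.33% and 2.07% of all genes) and no listed gene at 0 throughout a group. Both Gata2 calls were lost with a pseudocount of 1, where the log2 fold-changes were 0.53 and 0.66 against 1.77 and 2.05. Tfap2c, a trophoblast factor gene and the highest of the list, was at 5.45±1.15, 9.16±3.05 and 11.04±2.57 FPKM. It was higher at 24 h by 1.00±0.253 on the log2 scale, just short of the fold minimum (limma, adjusted p = 0.0365), and did not pass in 5 of the 9 fits with 1 library left out (adjusted p up to 0.111). edgeR and DESeq2 on recovered reads called it higher at 24 h (adjusted p = 0.0133 and 0.00995), and so called 4 genes of the list. At 18 h it did not pass by limma (0.71, adjusted p = 0.122), and with the replicate block it did (0.00242). The list of simple epithelium genes summed to 792 to 890 FPKM at 0 h, 1180 to 1350 at 18 h and 1080 to 1320 at 24 h. Most of that sum lay in Krt8, which rose from 175.3±13.8 to 443.7±46.4 and 409.5±64.8 FPKM (called, adjusted p = 0.000671 and 0.000878 by limma), and in Krt18 and Cdh1. Of its 12 genes 1 was called higher at each time, Krt8, against 1.33% and 2.07% of all genes. With no minimum fold 4 were higher and 0 lower at 18 h, against 4.27% and 3.72% of all genes, and 5 higher and 1 lower at 24 h, against 6.52% and 5.11%. The gene that was lower was Epcam, an epithelial adhesion molecule, at 114.8±10.1, 101.9±2.26 and 93.9±3.93 FPKM (log2 fold-change −0.29±0.0696 at 24 h, limma adjusted p = 0.0313), which did not pass in 7 of the 9 fits with 1 library left out. The keratin gene Krt19 was at 55.1±8.04, 55.4±10.7 and 53.5±10.8 FPKM and did not pass at either time, with or without the block. With the replicate block 5 of the 12 simple epithelium genes were higher and 0 lower at 18 h (all genes, 10.8% and 10.7%). At 24 h they were 5 and 1 (all genes, 13.6% and 12.5%). Cdh1 was added as higher at 18 h (limma, adjusted p = 0.0265, against 0.171 without the block), below the fold minimum. In the ESC list of 8 genes Tdgf1, which encodes the Nodal co-receptor Cripto, was called lower at both times, against 0.724% and 0.836% of all genes. It went from 130.6±12.1 to 54.2±6.14 and 47.5±4.39 FPKM, and no other gene of the list was called. With no minimum fold 1 of the 8 was higher and 2 lower at 24 h (all genes, 6.52% and 5.11%), and 0 and 1 at 18 h (all genes, 4.27% and 3.72%). The same counts with the replicate block were 1 and 4 at 24 h (all genes, 13.6% and 12.5%), and 1 and 3 at 18 h (all genes, 10.8% and 10.7%). Dppa5a, the highest of the list, differed from 0 h by −0.35 and −0.34 on the log2 scale (limma, adjusted p = 0.558 and 0.537, and 0.00424 and 0.00338 with the block). For Utf1 the 24 h difference was −0.38 (adjusted p = 0.207 by limma, and 0.0132 with the block). Nanog, a pluripotency factor, was higher at 24 h, at 40.6±5.51, 56.8±8.96 and 73.4±8.12 FPKM, by 0.86±0.141 on the log2 scale (limma, adjusted p = 0.00735, at most 0.034 with 1 library left out). Pou5f1, which encodes Oct4, was lower at 24 h, at 371.3±53.3, 289.9±33.1 and 247.5±33.4 FPKM, by −0.58±0.129 (limma, adjusted p = 0.0220, up to 0.0838 with 1 library left out). At 18 h neither passed (adjusted p = 0.0680 and 0.126 by limma), and with the replicate block both did (0.000902 and 0.00149). The part of these cell types in the differences of the claudins, Ocln and Tjp1 was not tested.

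The genes whose pattern was most like that of Cldn5 over the 9 libraries were Frmd6, Lfng, Rasd2, Cntn2 and Id3, with Pearson r of log2(FPKM+0.1) between 0.9894 and 0.9931 among 11892 genes compared. Id3, which encodes an inhibitor of E proteins, was at 14.1±4.06, 246±17.4 and 257±23.4 FPKM, and Lfng, a Notch-modifying glycosyltransferase, at 7.16±1.06, 19.8±1.04 and 19.2±0.593 FPKM. For Ocln, which had the lowest 24 h log2 fold-change of the 9 genes, they were Itga6, Fra10ac1, Foxp1, Smc3 and Mthfd2, with r between 0.9736 and 0.9869. Itga6, the integrin alpha-6 gene, was at 18.2±1.24, 14.4±1.09 and 14.6±0.321 FPKM. These correlations are a description, since all genes share the same libraries and the same 3 groups.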

How the data were processed

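The data are bulk RNA-seq of 9 libraries of dox-inducible ESCs (0 h, 18 h and 24 h, 3 biological replicates each). The treatment protocol text in the labels names other hours than the sample titles, and the titles were used. Per the study's methods and labels, the authors sequenced stranded mRNA libraries, trimmed reads with cutadapt 1.9, aligned them with STAR to GRCm38 and compared groups with edgeR 3.16.5. The authors deposited FPKM for 47729 genes and a second table of 19210 genes whose per-library signal is scaled CPM. In that signal the deposited values came out as whole reads for 100.0% of genes (tolerance 0.05), which gave the depths. The authors' mean values, fold-changes and p-values in that table were not used.

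Values were analysed as log2(FPKM+0.1), keeping 17951 genes whose mean reached 0.1 FPKM, because the main table holds FPKM and not counts. limma 3.58.1, with variances moderated along an intensity trend, was fitted to all 9 libraries by time point, two-sided, with Benjamini-Hochberg adjustment over all genes tested. All 9 genes of interest passed the filter. edgeR 4.0.16 and DESeq2 1.42.0 on the recovered reads were alternatives. The fit was also run on simulated data, and that outcome is not given or used here. Replicate numbers pair the libraries by the data: deviations from the group means correlated at 0.211 to 0.548 over 9 same-numbered pairs and at −0.161 on average over 18 other pairs. The members and the gene lists were chosen with earlier results of these data known. Genes named were the 9 members, Tcf3, the called genes and the 3 highest genes of each list, list genes that passed without a fold minimum, genes alike in pattern, and neighbours in the genome; 1 of these is not reported here. Further genes named for a fit with the replicate block or on recovered reads, and Nanog, Pou5f1, Epcam and Tie1, were chosen after their values were seen. Patj and Afdn were matched under older names and Cldn25 was not matched.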

Additional observations from a re-analysis of the deposited data

How the results depend on the processing

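Of the 9 genes 1 was called at 18 h and 1 at 24 h in the alternatives that kept a minimum fold-change (1 to 1 with 1 library left out). The gene was chosen on the same libraries for its difference, so these counts are a description and say nothing of stability. With no minimum fold-change 3 genes passed at 18 h and 4 at 24 h. With the replicate block (paired fit) the calls at the main thresholds were 1 of the 9 genes at each dox time and 0 between dox times, and 2 and 3 of the other tight junction genes. An edgeR fit with the replicate block was added after seeing the data and gave the same called genes. For the other tight junction genes at 18 h, 1 was called with a pseudocount of 1 or 0.01, no filter, a mean FPKM of at least 1, no intensity trend or only the 2 time points compared. The count was 0 with a log2 fold minimum of 2, 8 with no minimum fold-change and 1 to 2 with 1 library left out. At 24 h it was 1 with a pseudocount of 1, 0 with a log2 fold minimum of 2, 10 with no minimum fold-change and 1 to 3 with 1 library left out. The 18 h counts of 1 are Cgnl1 alone, without Esam. Esam was below 1 FPKM in every library, so the filter at a mean FPKM of at least 1 leaves it out. With a pseudocount of 1 its log2 fold-change was −0.44, short of the fold minimum. In the other settings named for a count of 1 its adjusted p by limma lay between 0.0551 and 0.109. Why Esam varied between libraries was not tested.

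Directions at 18 h kept their sign for all 9 genes, and at 24 h for 7, the exceptions being Cldn3 and Cldn9. Named genes that did not pass changed direction as follows. Under quantile normalization Lin7c was 0.0413 at 24 h, and with a pseudocount of 0.01 Cldn23 was 0.0122 at 18 h. With 1 library left out, the 18 h log2 fold-change ranged from −0.30 to 0.25 for Cldn23, −0.15 to 0.12 for Jam3, −0.044 to 0.242 for Lsr, −0.00937 to 0.0999 for Lin7c and −0.11 to 0.13 for Grhl2. At 24 h it ranged from −0.0508 to 0.49 for Cldn23, −0.0305 to 0.144 for Jam3, −0.0234 to 0.263 for Lsr and −0.0732 to 0.0442 for Lin7c. Cldn9 (18 to 46 reads), Esam (6 to 62 reads) and Cldn5 at 0 h (6 to 16 reads) rest on few reads, and Cldn9 dropped out at a mean FPKM of at least 1.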
